A study of Mus musculus with 24 samples.

Results

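A set of 10 genes of the myeloid lineage was followed through embryos and yolk sacs of mice that lack Cmtr2, an enzyme that methylates the second transcribed nucleotide of capped mRNAs. They are, among 54532 gene IDs in each table, Csf2rb, Csf2rb2, Fcgr3, Csf1r, Cx3cr1, Ptprc, Fcer1g, Tyrobp, Cd68 and Adgre1. They were listed by symbol as genes of yolk sac macrophages, and Csf2rb and Fcgr3 were put on the list because they were lower in knockout yolk sac. Yolk sac differences of the 10 genes are therefore given as a description with no p. Tests are given for the embryos, which the stated reason for listing Csf2rb and Fcgr3 did not use. The list was chosen with earlier results of these data known, so the embryo p-values may not be free of that choice.

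Libraries were made from total RNA of mouse tissue, and the labels used here name no strain. Wild-type (WT) littermates and constitutive Cmtr2-/- knockouts (KO) were compared in 3 sets of 4 WT and 4 KO libraries each. The sets are embryos at embryonic day 8.5 (E8.5), from 2 litters and alike in form, embryos at E9.5, when the knockouts were smaller, and yolk sacs at E9.5. The E9.5 samples came from 4 litters, and the sources used here do not tie single libraries to litters. The knockout is not restricted to a cell type, so blood, endothelium and endoderm of the KO samples all lack the gene, and the question is how gene expression differs between the genotypes. With 2 litters for 4 libraries per group, some E8.5 replicates of a group must share a litter, and which ones is unknown. Whether E9.5 replicates of a group do so is unknown as well. The tests treat libraries as independent. A p-value reflects only how far these libraries scatter, which may be partly technical.

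The yolk sac makes the first macrophages of the mouse from erythro-myeloid progenitors that carry receptors for colony-stimulating factors. Csf2rb encodes the beta chain shared by the receptors for GM-CSF, interleukin 3 and interleukin 5, and Csf2rb2 encodes a mouse paralogue that pairs with the interleukin 3 receptor. Both chains signal through the kinase Jak2 and Stat5. Fcgr3 encodes a low-affinity receptor for immunoglobulin G that needs the Fc receptor gamma chain, encoded by Fcer1g, to signal.

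Levels are FPKM, that is, fragment numbers per gene length and sequencing depth, which were scaled between the 8 libraries of a set, and differences are on the scale log2(scaled FPKM + 0.5), KO minus WT. Low FPKM values were whole multiples of 1 fragment in 97.6% to 98.6% of cases at a tolerance of 0.02 fragments, which put the depth at 15554473 to 23377032 fragments per library. The E8.5 values use mean transcript lengths and the E9.5 values the union of exons, so levels are not compared between E8.5 and E9.5. The targeted gene went with the title of each library: Cmtr2 was at 11.4% of the WT level in E8.5 KO embryos, 15.4% in E9.5 KO embryos and 5.52% in KO yolk sacs, with no overlap of the groups in any set (exact two-sided permutation p = 0.0286 each, the smallest that 4 against 4 allows). Titles set the groups, since the genotype tag of all 24 libraries names the other genotype. In 3 E9.5 embryo libraries, WT replicates 1 and 3 and KO replicate 2, the tailbud gene brachyury was at 0.511 to 1.23, and at 8.86 to 18.6 in the other 5.

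Promoters are shown for Csf2rb2 and Fcgr3, genes whose yolk sac levels were low together in KO libraries. They run from 250 bases before to 30 bases after the RefSeq start site on GRCm38.p6, 5′ to 3′ on the strand of the gene. Capitals mark GAGGAA read on the opposite strand, the core that the myeloid factor PU.1 (encoded by Spi1) binds. Csf2rb2 is at chr15:78305692-78305971, minus strand, and Fcgr3 at chr1:171059374-171059653, minus strand.
Csf2rb2: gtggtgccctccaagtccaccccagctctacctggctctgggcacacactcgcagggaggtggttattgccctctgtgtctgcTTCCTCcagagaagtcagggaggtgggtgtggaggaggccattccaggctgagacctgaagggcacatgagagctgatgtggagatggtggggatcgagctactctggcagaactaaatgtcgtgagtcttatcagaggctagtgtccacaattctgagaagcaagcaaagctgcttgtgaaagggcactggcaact
Fcgr3: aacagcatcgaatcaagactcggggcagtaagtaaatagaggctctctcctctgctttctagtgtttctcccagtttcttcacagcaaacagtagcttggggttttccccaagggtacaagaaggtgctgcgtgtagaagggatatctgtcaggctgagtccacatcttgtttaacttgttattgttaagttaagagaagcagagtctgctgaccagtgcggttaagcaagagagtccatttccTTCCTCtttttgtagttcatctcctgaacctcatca
GAGGAA starts at position -167 in Csf2rb2 and at position -6 in Fcgr3, counted from the start site. It also starts at -225 in Cd68 and at -158 in a window of Ptprc, genes whose yolk sac groups overlapped. The windows of Fcer1g and Cx3cr1 did not hold it. On either strand GAGGAA was in 5 of the 8 windows that RefSeq gives for 6 of the 10 genes and in 26.0% of all 32851 windows of that length. Fcgr3 has overlapping windows that hold the same match, so the windows are not independent and the shares were not tested. The longer GAGGAAGT, which contains GAGGAA, was in 0 of the 8 and in 2.82% of all windows. Csf2rb, Csf1r, Tyrobp and Adgre1 were not matched in the promoter table. The motifs were chosen after the sequences had been seen, and a match is a run of letters, not a binding site.

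In E9.5 yolk sac both receptor chains were lower in every KO library than in any WT library. Csf2rb (GRCm38 chromosome 15, 78325752 to 78353847, plus strand) had scaled FPKM values of 8.09, 6.20, 8.31 and 4.49 in WT replicates 1 to 4 and of 1.17, 1.04, 0.626 and 0.794 in KO replicates 1 to 4. The KO libraries are all low, and the highest of them is below the lowest WT library by a wide margin. The WT mean was 6.77 ± 1.79 and the KO mean 0.908 ± 0.244 (SD, n = 4 each), so that KO libraries held 13.4% of the WT level, a difference of -2.35 with a standard error (SE) of 0.21. Recovered fragments of Csf2rb numbered 3563 over the WT libraries and 525 over the KO libraries.

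Csf2rb2 (chromosome 15, 78282507 to 78305721, minus strand) showed the same order at a lower level. Its scaled FPKM was 2.57, 1.68, 2.36 and 1.37 in WT replicates 1 to 4 and 0.636, 0.331, 0.230 and 0.259 in KO replicates 1 to 4. The groups did not overlap, KO libraries held 18.2% of the WT level, and the difference was -1.52 (SE 0.23). It passed the filter on low values, at least 1 FPKM in at least 4 of 8 libraries, through the WT group alone. The 2 genes lie head to head, 20030 bases apart, and their longest transcripts (4900 and 4740 bases) are 95.1% identical over an aligned stretch of 3108 bases. How the deposited counting split reads between them was not stated, so the value of each gene is less certain than that of the pair. The Csf2rb2 level was 27.1% to 31.8% of the Csf2rb level in WT yolk sacs and 31.7% to 54.4% in KO yolk sacs.

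Fcgr3 (chromosome 1, 171051174 to 171064935, minus strand), the Fc receptor, had the highest level of the 10 genes in yolk sac. Its scaled FPKM was 14.96, 24.3, 45.2 and 20.2 in WT replicates 1 to 4 and 5.83, 6.01, 5.41 and 8.42 in KO replicates 1 to 4. The WT libraries spread widely and the KO libraries little, and again no KO library reached the lowest WT library. KO libraries held 24.5% of the WT level, with means of 26.2 ± 13.3 and 6.42 ± 1.36 (SD, n = 4 each) and a difference of -1.85 (SE 0.29). A bulk sample cannot tell fewer cells of a type from less RNA per cell, here and in every result below.

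**Figure D1:**
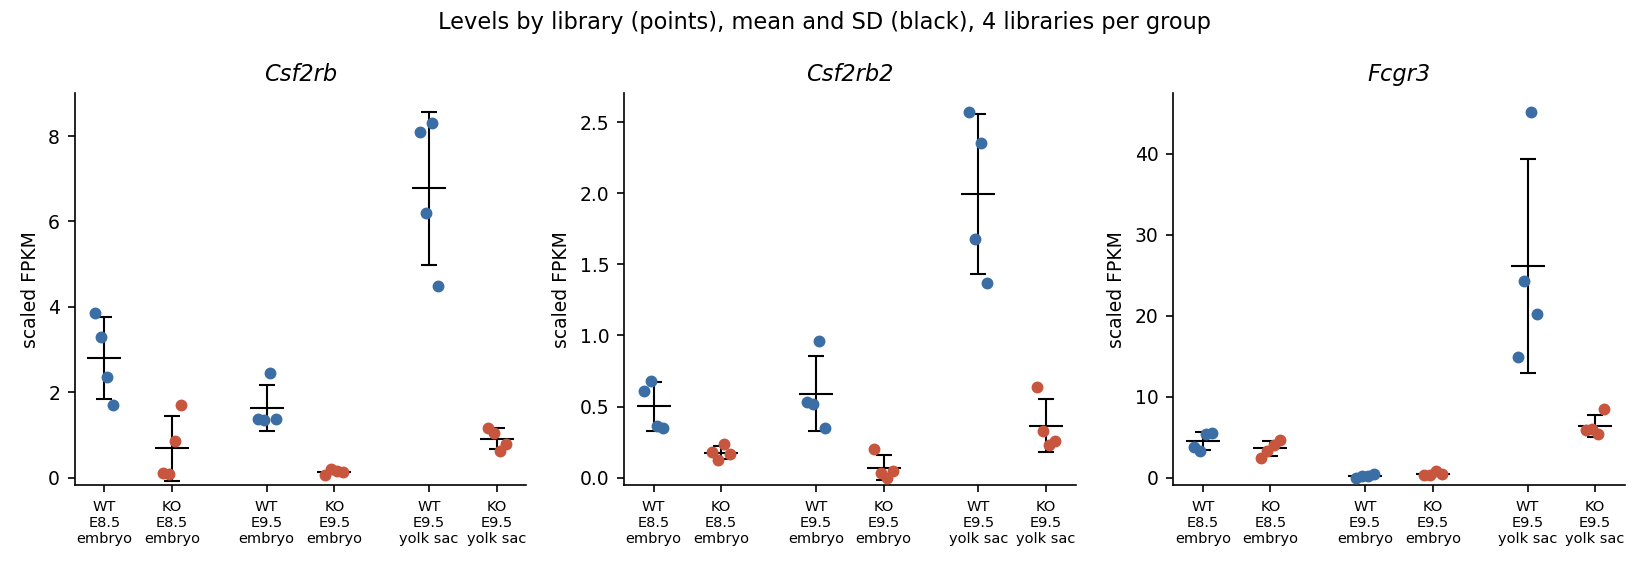
Scaled FPKM (linear axis) of Csf2rb, Csf2rb2 and Fcgr3 in each library (points, WT blue, KO red), with the group mean and SD in black, for E8.5 embryos, E9.5 embryos and E9.5 yolk sacs. In yolk sac all 4 KO points of each gene lie below all 4 WT points, while Fcgr3 overlaps in both embryo sets.

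Csf1r, the receptor for colony-stimulating factor 1 on which most tissue macrophages depend, did not share this order. Its yolk sac scaled FPKM was 1.56, 2.19, 3.35 and 1.67 in WT replicates 1 to 4 and 0.930, 4.58, 3.10 and 1.38 in KO replicates 1 to 4. KO replicate 2 is the highest of the 8 and KO replicate 1 the lowest, and the difference was 0.022 (SE 0.39). The gene overlaps Hmgxb3 on the other strand, and the sources do not say whether counting used strand.

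Cd68, a lysosomal membrane protein of macrophages and other phagocytic cells, had yolk sac values of 4.83 to 9.81 in WT and 5.05 to 7.36 in KO. The KO range lies inside the WT range, and the difference was -0.12 (SE 0.24). Fcer1g, the gamma chain adaptor that Fcgr3 signals through, had values of 1.15 to 3.07 in WT and 1.05 to 2.89 in KO with a difference of -0.27 (SE 0.32), and the groups overlapped as well. Differences between genes were not tested.

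Tyrobp, an adaptor with the same signalling motif as Fcer1g, was below the filter in yolk sac. Its values were 0.795, 2.88, 2.46 and 0.645 in WT replicates 1 to 4 and 0.135, 1.82, 0.297 and 0.645 in KO replicates 1 to 4. The groups overlap through KO replicate 2, and these values rest on 2 to 33 fragments per library. Cx3cr1, the fractalkine receptor of macrophage progenitors and microglia, had values of 0.0654, 0.284, 1.17 and 0.350 in WT and of 0, 0, 0.0988 and 0 in KO replicates 1 to 4. Its fragments numbered 156 over the WT libraries and 9 over the KO libraries, all 9 of them in KO replicate 3, and the groups overlap there because WT replicate 1 is at 0.0654. A count of 0 allows up to 3 fragments per library. The annotated span of Cx3cr1 overlaps 9 other genes.

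Ptprc and Adgre1, which mark leukocytes and macrophages, had low scaled FPKM in yolk sac. Ptprc, which encodes the leukocyte phosphatase CD45, had yolk sac values of 0.0313 to 0.146 in WT and 0.0246 to 0.0729 in KO. The Ptprc fragments numbered 128 over the WT libraries and 71 over the KO libraries, and its FPKM is divided by an exon length of 18313 bases. Adgre1, which encodes the macrophage antigen F4/80, had values of 0 to 0.0898 in WT and 0 to 0.0611 in KO, on at most 5 fragments per library. Both pairs of ranges overlap. The 10 genes are called myeloid genes below.

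**Figure D2:**
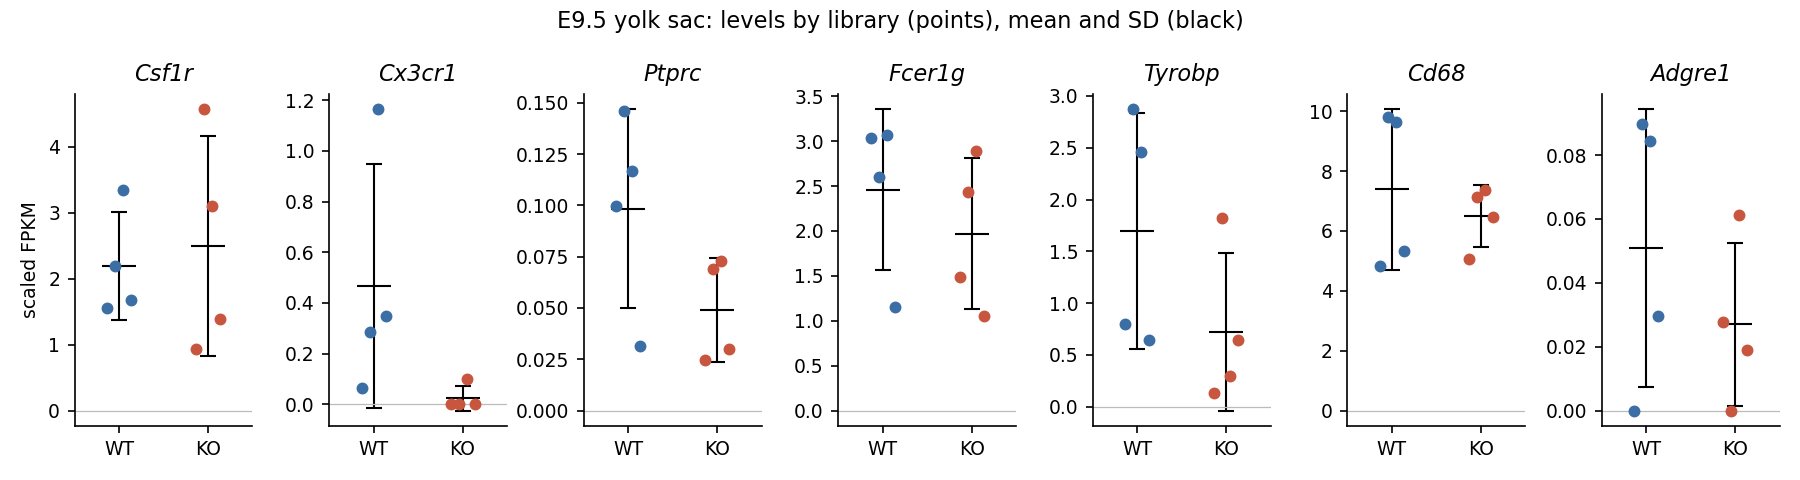
Scaled FPKM (linear axes, 1 scale per gene) of the other 7 myeloid genes in each E9.5 yolk sac library, WT in blue and KO in red, with mean and SD in black. KO and WT points overlap for all 7, and Ptprc and Adgre1 stay below 0.15 in every library.

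Over all 10 genes, 3 had no overlap between the groups in yolk sac with KO lower, 0 with KO higher and 7 overlapped. Of the 21039 genes above 0 in at least 4 libraries, 4.89% had all KO libraries below all WT libraries. The median difference of the 10, with those below the filter included, was -0.52. Over the 6 that were tested it was -0.895, beside 0.012 over all 12010 genes tested. Of the 10, 6 passed the filter, and 3 of these (Csf2rb, Csf2rb2 and Fcgr3) were called lower by limma at an adjusted p under 0.05. In the same fit 341 genes, or 2.84%, were called and 195, or 1.62%, were lower. Nothing is read from the members' count, median or calls, here or in the alternatives, since the list was chosen on this contrast. That choice fixed the count in advance. With TPM in place of FPKM the 146 higher and 195 lower genes became 87 and 192. With the replicate number as a block, 638 genes were called, the 3 myeloid genes among them. Without WT replicate 2 or WT replicate 4, 100 and 76 genes were called, with 2 myeloid genes each time, and the difference of Fcgr3, then not past the threshold, was -1.84 and -1.93. Without KO replicate 1, 2 or 4, the number of genes called was 194, 157 and 170, and 3 myeloid genes were called each time.

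The libraries themselves differed in other cell types. The summed scaled FPKM of 7 trophoblast and decidua genes was 1.30 to 15.7 in WT yolk sacs and 123, 796, 4.61 and 11.6 in KO replicates 1 to 4, so KO replicates 1 and 2 held more of these transcripts than any WT yolk sac. The part of these transcripts in the yolk sac differences was not tested. The sum of 10 primitive erythroid genes was 17289 to 50855 in WT and 17003 to 37304 in KO, and that of 8 endothelial genes 71.6 to 114 in WT and 84.0 to 119 in KO, so both overlapped.

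In E8.5 embryos Csf2rb was lower in KO on average but not past the threshold. Its scaled FPKM was 3.86, 3.30, 2.35 and 1.71 in WT replicates 1 to 4 and 0.109, 0.0906, 0.852 and 1.70 in KO replicates 1 to 4. KO replicates 1 and 2 were near 0, and KO replicate 4 reached almost the level of WT replicate 4. The means were 2.81 ± 0.961 and 0.689 ± 0.763 (SD, n = 4 each), with a log2 difference of -1.65 (SE 0.43, limma adjusted p = 0.0729). The exact two-sided permutation p was 0.0286.

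The size of the E8.5 difference depended on which libraries were compared. In WT and KO replicates 1 and 2 alone it was -2.76 (limma adjusted p = 0.0314), and in replicates 3 and 4 alone it was -0.55 (adjusted p = 0.466), a split chosen after the data had been seen. With the replicate number as a block the adjusted p was 0.0341, and over 21 alternatives the difference ran from -2.89 to -0.55 and its adjusted p from 0.0243 to 0.466. The summed level of the 10 primitive erythroid genes was 205, 1116, 3081 and 6994 in KO replicates 1 to 4 and 3051 to 4078 in WT. KO libraries with little erythroid RNA were thus the ones with little Csf2rb. In WT this order did not hold, since replicate 1 had the lowest WT sum (3051) and the highest Csf2rb (3.86). The part of erythroid RNA in the result was not tested.

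**Figure D3:**
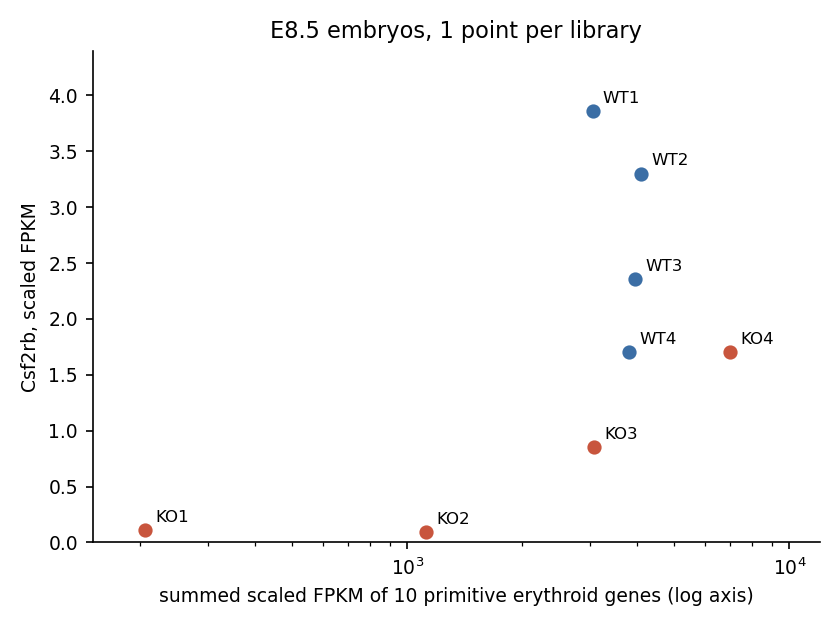
Csf2rb (scaled FPKM, linear axis) against the summed scaled FPKM of 10 primitive erythroid genes (log axis) in the 8 E8.5 embryo libraries, each point labelled with its genotype and replicate. KO replicates 1 and 2 lie at the lower left with Csf2rb at 0.109 and 0.0906, and KO replicate 4 lies at the right with 1.70. WT replicate 1 has the lowest WT sum and the highest Csf2rb, 3.86.

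Csf2rb2 at E8.5 stayed under the filter. Its values were 0.611, 0.683, 0.362 and 0.349 in WT replicates 1 to 4 and 0.178, 0.123, 0.240 and 0.165 in KO replicates 1 to 4, on 5 to 38 fragments per library. All KO libraries were below all WT libraries (log2 difference -0.55, SE 0.13, exact permutation p = 0.0286). KO replicate 3 had the highest KO value here and KO replicate 4 the highest for Csf2rb.

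Fcgr3, which was low in KO yolk sac, overlapped between the groups in E8.5 embryos. Its values were 3.76, 3.31, 5.42 and 5.47 in WT replicates 1 to 4 and 2.45, 3.30, 4.06 and 4.65 in KO replicates 1 to 4. The difference was -0.28 (SE 0.25, limma adjusted p = 0.491). Cd68 was at 1.13 to 3.12 in WT and 1.86 to 4.93 in KO (difference 0.37, SE 0.32, adjusted p = 0.485), and Fcer1g at 0.226 to 1.96 in WT and 0.279 to 1.34 in KO (difference -0.030, SE 0.41, adjusted p = 0.972, with a sign that turned to 0.030 under quantile normalization).

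The other 5 genes had low values at E8.5. Csf1r was at 0.131 to 0.662 in WT and 0.207 to 0.935 in KO, Tyrobp at 0 to 0.481 and 0 to 0.361, and Adgre1 at 0 to 0.208 and 0 to 0.130. Ptprc was at 0 to 0.440 and 0.0194 to 0.0407. Cx3cr1 had 2 fragments over the WT libraries and 1 over the KO libraries.

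Of the 10 genes, 2 had all E8.5 KO libraries below all WT libraries, beside 5.61% of 21020 genes. The median difference was -0.070 over the 10, with those below the filter included, -0.155 over the 4 tested and 0.010 over the 13058 genes tested. Of the 10, 4 passed the filter and limma called 0, as did voom on recovered fragments, beside 0.957% of all genes tested (125 genes) in either direction and 0.429% lower. At an unadjusted p under 0.05, 1 of the 4, Csf2rb, was below it, beside 3237 of all 13058 genes tested. Nothing is read from that count. With TPM the 69 higher and 56 lower genes became 33 and 108, and with FPKM as deposited 71 and 99.

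In E9.5 embryos Csf2rb fell in KO. Its scaled FPKM was 1.37, 1.35, 2.45 and 1.38 in WT replicates 1 to 4 and 0.0652, 0.200, 0.150 and 0.145 in KO replicates 1 to 4. WT replicates 1, 2 and 4 lie close together, WT replicate 3 is higher, and the KO libraries are all far below. KO libraries held 8.56% of the WT level, and the difference was -1.71 (SE 0.24, limma adjusted p = 0.00918, exact two-sided permutation p = 0.0286). It passed the filter through the 4 WT libraries alone, and without any filter the adjusted p was 0.0336. The difference kept its call in all 8 fits without 1 library (adjusted p of 0.0142 to 0.0439). It lost it, at -1.59 (adjusted p = 0.0711), when the 3 libraries low in brachyury were left out together. In replicates 1 and 2 alone the difference was -1.56 (adjusted p = 0.289) and in replicates 3 and 4 alone -1.87 (adjusted p = 0.0772). Over all 22 alternatives it ran from -3.69 to -1.19 and was called in 19.

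The erythroid sum was 6142 to 11136 in E9.5 WT embryos and 2077, 4348, 1270 and 13106 in KO replicates 1 to 4. KO replicates 1 to 3 lie below every WT library and KO replicate 4 above them all, and the part of this in the Csf2rb result was not tested. Csf2rb2 was at 0.534, 0.516, 0.964 and 0.349 in WT replicates 1 to 4 and at 0.200, 0.0330, 0 and 0.0467 in KO replicates 1 to 4. The groups did not overlap (log2 difference -0.92, SE 0.20, exact permutation p = 0.0286). The gene was below the filter, and at a filter of 0.3 FPKM limma called it lower (adjusted p = 0.0402), while without a filter it did not (adjusted p = 0.0751).

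Fcgr3 was close to 0 in E9.5 embryos. Its values were 0, 0.259, 0.234 and 0.459 in WT replicates 1 to 4 and 0.307, 0.360, 0.883 and 0.447 in KO replicates 1 to 4. The groups overlap and the mean was higher in KO, with a difference of 0.44 (SE 0.26, exact permutation p = 0.171). The yolk sac values of 14.96 to 45.2 in WT come from a table that was normalized separately, and the difference of the genotype effect between embryo and yolk sac was not tested.

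Cd68 in E9.5 embryos was at 1.25 to 1.496 in WT and 0.881 to 1.99 in KO. The difference was -0.040 (SE 0.22, limma adjusted p = 0.916) and turned to 0.078 under quantile normalization. Fcer1g was at 0.0652 to 1.68 in WT and 0.317 to 0.655 in KO, and Csf1r at 0.133 to 0.426 and 0.0849 to 0.522. Tyrobp was at 0 to 0.304 and 0 to 0.859, Ptprc at 0 to 0.0338 and 0 to 0.0272, and Adgre1 at 0 to 0.0154 and 0 to 0.0643. All of these overlapped between the groups. Cx3cr1 had 14 fragments over 3 WT libraries and 0 in all 4 KO libraries, where WT replicate 4 also had 0.

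Of the 10 genes, 2 had all E9.5 embryo KO libraries below all WT libraries, beside 8.96% of 21395 genes. The median difference was -0.034 over the 10, with those below the filter included, -0.876 over the 2 tested and 0.0074 over the 12027 genes tested. Of the 10, 2 passed the filter and 1 of them, Csf2rb, was called lower, beside 13.6% of all genes tested called in either direction (1637 genes) and 6.26% lower. The split of the calls moved with the scaling: 884 higher and 753 lower became 132 and 3113 with TPM and 592 and 1865 with voom on recovered fragments. TPM moved the median of all genes by -0.34 and voom by -0.13, and Csf2rb, at -2.71 with TPM, stood below that shift.

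**Figure D4:**
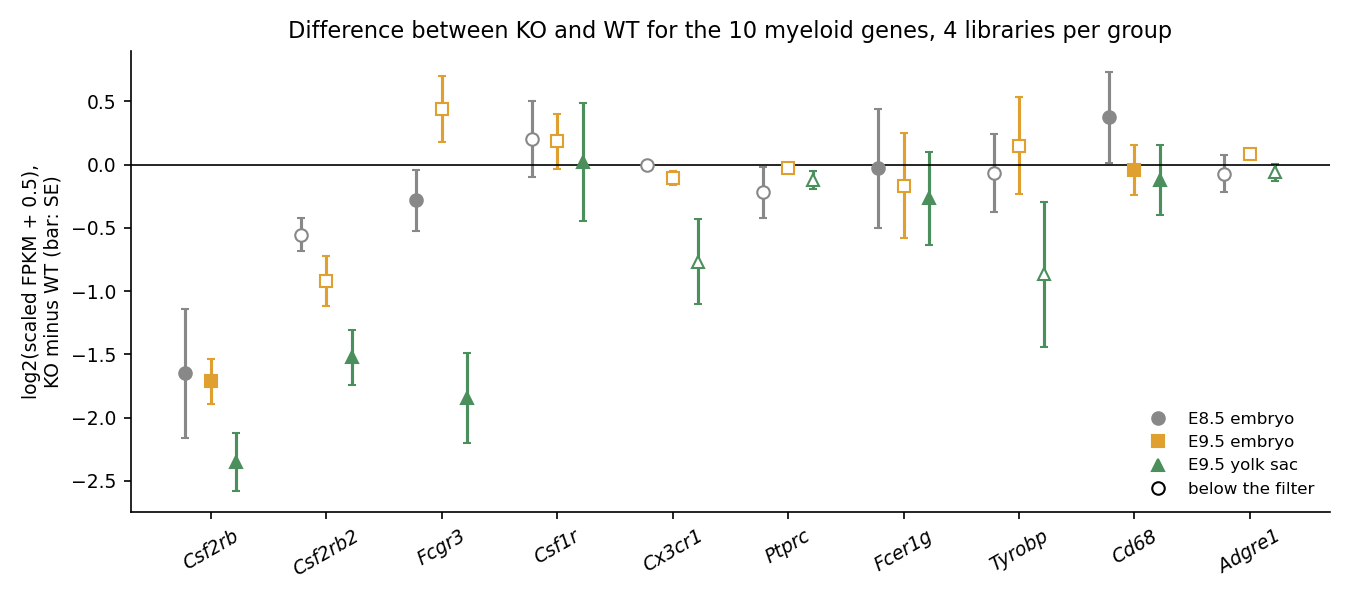
Difference between KO and WT, on the scale log2(scaled FPKM + 0.5), of the 10 myeloid genes in E8.5 embryos (circles), E9.5 embryos (squares) and E9.5 yolk sacs (triangles), with SE bars from 4 libraries per group and open symbols for genes below the filter. Csf2rb and Csf2rb2 are below 0 in all 3 sets, and Fcgr3 is at -1.85 in yolk sac, -0.28 in E8.5 embryos and 0.44 in E9.5 embryos.

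Genes of the same receptor systems were examined by list, beginning with the partners of the beta chain. The partner list holds the alpha chains Csf2ra, Il3ra and Il5ra, the ligands Csf2, Il3 and Il5, the kinase Jak2, Stat5a, Stat5b and the Stat5 target Cish. The ligands Csf2 and Il3 were at 0 in every library of all 3 sets, and Il5 in E8.5 embryos and yolk sacs. Of 10 listed genes, 6, 4 and 5 were tested in E8.5 embryos, E9.5 embryos and yolk sacs, and their median differences were 0.20, -0.27 and 0.0032.

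Il3ra, the alpha chain of the interleukin 3 receptor, rose in E8.5 KO embryos. Its scaled FPKM was 5.94, 5.64, 5.47 and 5.26 in WT replicates 1 to 4 and 9.44, 10.2, 9.15 and 11.9 in KO replicates 1 to 4. The difference was 0.80 (SE 0.16, limma adjusted p = 0.0490), and the call was lost in all 8 fits without 1 library (adjusted p of 0.0748 to 0.133). In E9.5 embryos its mean was 1.97 in WT and 4.58 in KO without overlap of the groups, and it missed the threshold there.

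Jak2, the kinase bound to the beta chain, fell in E9.5 KO embryos. Its values were 3.57, 6.69, 5.18 and 5.55 in WT replicates 1 to 4 and 3.01, 2.34, 1.44 and 1.65 in KO replicates 1 to 4. The groups do not overlap, and the difference was -1.15 (SE 0.24, limma adjusted p = 0.0224), called in 3 of 8 fits without 1 library. At E8.5 Jak2 was at 3.97 to 5.70 in WT and 2.38 to 3.32 in KO, again without overlap but not past the threshold. In yolk sac it was at 10.1 to 13.8 in WT and 8.19 to 10.5 in KO, and 0 of the 5 partners tested there were called. Csf2ra, the GM-CSF receptor alpha chain, was at 2.30 to 2.96 in WT and 1.95 to 4.24 in KO yolk sac.

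**Figure D5:**
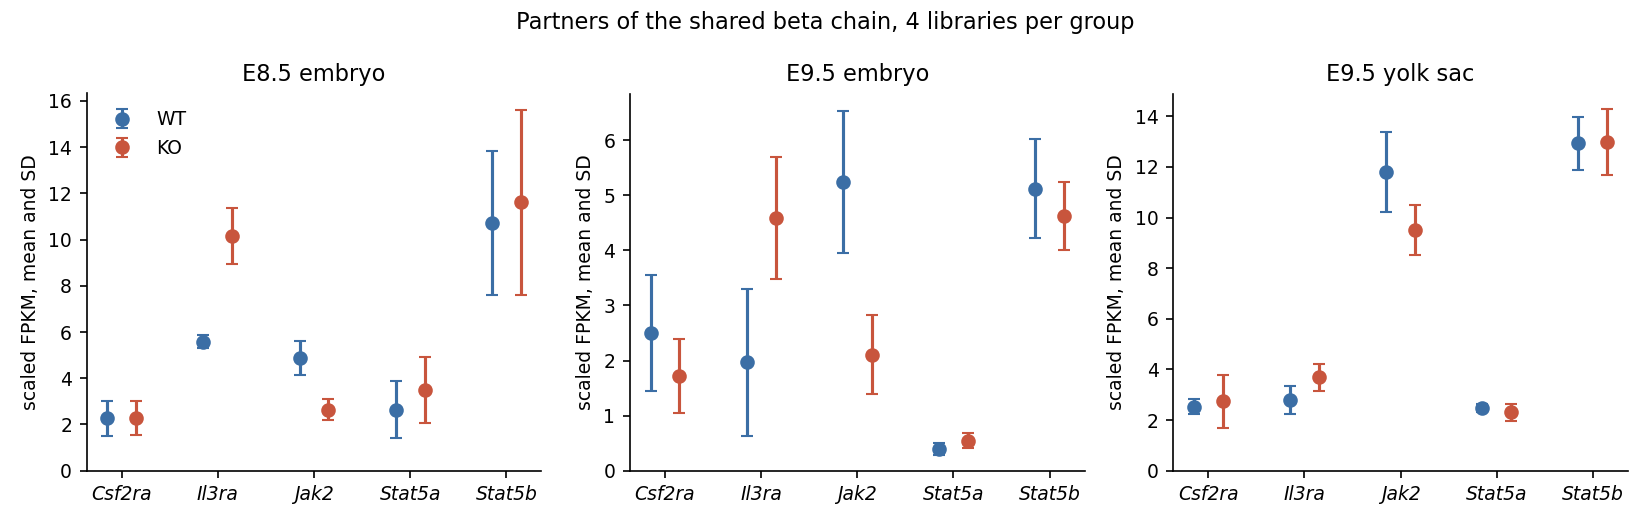
Mean scaled FPKM (linear axis, SD bars, 4 libraries per group) of Csf2ra, Il3ra, Jak2, Stat5a and Stat5b in WT (blue) and KO (red) for the 3 sets. Il3ra is higher and Jak2 lower in KO in both embryo sets, and in yolk sac Jak2 averaged 11.8 in WT and 9.51 in KO.

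Of the 7 other Fc receptor genes on the list only Fcgrt, the neonatal Fc receptor, found in rodent yolk sac endoderm, was tested, in all 3 sets, and it was not called in any of them. Its yolk sac level was 31.7 to 83.4 in WT and 30.5 to 67.8 in KO, so the groups overlapped. Fcgr2b, the inhibitory relative of Fcgr3, was at most 0.0603 in WT yolk sac.

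For the receptors and kinases that work with Fcer1g and Tyrobp, 2, 2 and 3 of 12 were tested in E8.5 embryos, E9.5 embryos and yolk sacs, and for the Csf1 and Kit axis 3 of 6 in each set. None of them was called by limma. Plcg2, a phospholipase downstream of these receptors, was at 2.25 to 3.52 in WT yolk sac and 1.74 to 2.21 in KO without overlap. Kit, a receptor of progenitors, was at 0.875 to 1.32 and 1.48 to 8.32, the other way.

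Of 12 myeloid transcription factors, 6, 4 and 5 were tested and 0 were called in any set. Spi1, which encodes PU.1, was below the filter in yolk sac, with values of 1.03, 0.756, 1.89 and 1.14 in WT replicates 1 to 4 and of 0.250, 0.657, 0.441 and 0.296 in KO replicates 1 to 4. The groups do not overlap. Over the 5 pathway lists together, 4 of 35 genes above 0 in at least 4 yolk sac libraries had all KO below all WT libraries (Cish, Plcg2, Spi1 and Gfi1), beside the 4.89% of all genes, and 2 had all KO above all WT libraries (Kit and Blnk). In E8.5 embryos 2 of 33 were lower in this way (Jak2 and Zeb2), beside 5.61% of all genes, and 1 higher (Il3ra). In E9.5 embryos 2 of 31 were lower (Jak2 and Myb), beside 8.96%, and 1 higher (Il3ra). The share of all genes with all KO above all WT libraries was not taken, so nothing is read from the counts of higher genes.

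Of 12 genes of leukocyte cytoskeleton and signalling, 7 were tested in yolk sac and 1 fell. It was Lcp1, which encodes the actin-bundling protein plastin 2. Its values were 41.7, 56.0, 58.4 and 60.2 in WT replicates 1 to 4 and 15.5, 24.2, 33.8 and 29.3 in KO replicates 1 to 4. The groups do not overlap, and the difference was -1.10 (SE 0.22, limma adjusted p = 0.0350), called in 3 of 8 fits without 1 library. Coro1a, a leukocyte actin regulator, was at 2.27 to 6.37 in WT and 0.647 to 1.71 in KO, and Rac2, a haematopoietic GTPase, at 1.22 to 2.86 and 0.475 to 0.783. Neither overlapped between the groups and neither passed the threshold. Ptpn6, a phosphatase of haematopoietic cells, rose in E9.5 KO embryos from 2.10 to 3.96 (difference 0.79, SE 0.18, limma adjusted p = 0.0268), called in 3 of 8 fits without 1 library.

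No macrophage marker outside the 10 was called by limma in any set. Of the 21 listed, 4 were tested in yolk sac and 0 were called, with a median difference of 0.45 beside 0.012 over all genes tested. Its summed scaled FPKM was 55.5 to 96.6 in WT and 85.6 to 129 in KO. Lyve1, a hyaluronan receptor of endothelium as well as of macrophages, made up most of the sum, at 40.7 to 74.9 in WT and 63.7 to 102 in KO. Timd4 and Cd163 were at 0 in every yolk sac library, and C1qb was at 0.132 to 2.52 in WT and 0.113 to 0.326 in KO, with overlap of the groups. In the embryos 3 and 1 of the 21 were tested and 0 were called.

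Granulocyte and mast cell genes did not pass the filter in any set. Mpo, the myeloperoxidase of granulocyte and monocyte progenitors, was at 0.929 to 2.09 in WT yolk sac and 0.0394 to 0.376 in KO, without overlap of the groups. It was the only 1 of 5 listed genes above 0 in at least 4 yolk sac libraries to do so, beside 4.89% of all genes. The summed scaled FPKM of the 12 listed genes overlapped, at 2.26 to 5.37 in WT and 3.61, 4.11, 0.819 and 2.03 in KO replicates 1 to 4. Other genes made up most of the sum in KO replicates 1 and 2. In E8.5 embryos Mpo was close to 0 in every library, at 0 to 0.0417 in WT and 0.0435 to 0.160 in KO. All KO values were above all WT values there, and no direction is read from values this low. Gzmb, a granule protease, was at 0 to 0.0695 in WT and 0.116 to 0.689 in KO E9.5 embryos, also without overlap and at low values.

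The nearest genes of the yolk sac profiles of Csf2rb and Fcgr3 were found among 12005 genes, by the root mean square difference of centred log2 values over the 8 libraries. For Csf2rb they were Gja5, which encodes the arterial gap junction protein connexin 40 (0.365), Cmtr2 itself (0.410) and Depp1 (0.460). Gja5 averaged 5.17 in WT and 0.305 in KO. For Fcgr3 they were Pklr, a pyruvate kinase of hepatocytes and erythrocytes (0.296), Gm16146 (0.359) and Hpgd, a prostaglandin-degrading enzyme (0.366). Pklr averaged 32.4 in WT and 10.2 in KO. Such a likeness holds for any gene with a similar genotype difference.

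The genes beside the receptor pair were examined within 100000 bases on each side, a window chosen after the data had been seen. It holds 9 protein-coding genes with the pair. Ncf4, a subunit of the phagocyte oxidase next to Csf2rb2, was at 1.07 to 3.17 in WT yolk sac and 1.28 to 1.79 in KO (log2 difference -0.051, limma adjusted p = 0.942). Tst, Mpst and Kctd17 were tested in all 3 sets, with adjusted p-values of 0.107 or more. Pvalb, Tex33 and Tmprss6 were below 1 in all yolk sac and E9.5 embryo libraries. At E8.5 Ncf4 was at 0.623 to 2.35 in WT and 0.0642 to 1.09 in KO, which overlap.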

How the data were processed

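Libraries were made with an NEBNext Ultra kit from DNase-treated total RNA, per the labels' protocols. The authors deposited FPKM per gene in 1 table per set. DESeq2 and builds GRCm38 and mm10 are named in the submitters' processing notes, with aligner, counter and strand use not given in the sources used here. Symbols, positions and lengths came from GENCODE M21, which holds 54409 of the 54532 IDs. FPKM was divided by median-of-ratios factors over genes that passed the filter (at least 1 FPKM in at least 4 of 8 libraries), 0.5 was added, log2 was taken, and limma 3.58.1 in R 4.3.3 was fitted within each set (genotype as the only term, mean-variance trend, Benjamini-Hochberg adjustment over all genes tested, call under 0.05). A fold on this scale understates low genes. Single embryo values also had an exact permutation test over 70 arrangements. Transcripts of the receptor pair were compared with blastn, and the rest used Python 3.11.15 and pandas 2.3.3.

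Same-numbered WT and KO yolk sacs deviated together (correlations of deviations from the group means of 0.209 to 0.387). E8.5 embryos did so for replicates 1 to 3 (0.310 to 0.382) and hardly for replicate 4 (0.0649). In E9.5 embryos the correlations were -0.21 to 0.15. The labels give no pairing, so the main fit had no replicate term in any set, and the replicate block is an alternative. Alternatives changed the pseudocount, filter, scaling, trend, terms and libraries; replicates 1 and 2 or 3 and 4 alone, the neighbouring genes and the overlap counts of the lists were added after seeing the data. Named genes are the 10, Cmtr2, called genes of the lists, pathway list genes with their levels, and the 3 nearest profiles of Csf2rb and Fcgr3. Outside this rule, Coro1a, Rac2, Mpo, Gzmb, Lyve1, C1qb, Timd4, Cd163, Amn and Cldn5 were named with their values known. The result of 1 gene that this rule names is not reported here. The 10 genes and the lists were chosen with earlier results of these data known.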

Additional observations from a re-analysis of the deposited data

Results flagged for a closer look

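In 8 of the 60 groups of 4 libraries examined for the 10 genes, 1 library stood apart from the other 3. The rule flags about 5% of groups of normally distributed values, but it always flags 1 value above 0 beside 3 at 0. The 8 are therefore not read as an excess. Csf2rb in E9.5 embryo WT replicate 3 was at 2.45 scaled FPKM, with 1.38 next, and Csf1r in the same library was at 0.426, with 0.163 next. Tyrobp in E9.5 embryo KO replicate 2 was at 0.859, with 0.0830 next. Ptprc in E8.5 embryo WT replicate 4 was at 0.440, with 0.0746 next. Cx3cr1 in yolk sac KO replicate 3 was at 0.0988 while the other KO libraries were at 0. The remaining values rest on 1 or 2 fragments against 0 in the other libraries: Cx3cr1 in E8.5 embryo WT replicate 2 (0.0226) and KO replicate 2 (0.0155), and Adgre1 in E9.5 embryo WT replicate 2 (0.0154).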

How the results depend on the processing

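The number of genes called moved more than the values of the myeloid genes, and no called result changed sign. Leaving out 1 library gave 30 to 74 genes in E8.5 embryos (125 in full), 88 to 2710 in E9.5 embryos (1637) and 76 to 287 in yolk sac (341), with 0, 1 and 2 to 3 myeloid genes. In E9.5 embryos 2710 genes were called without WT replicate 1, 88 without WT replicate 2, 131 without WT replicate 3, 614 without WT replicate 4, and 238, 250 and 272 without KO replicates 2, 3 and 4. Without a filter 24, 188 and 124 genes were called in the 3 sets. The replicate block gave 1261, 146 and 638, and 1 myeloid gene, Csf2rb, at E8.5; it changed no other call of the 10. By correlation across genes, every WT library but replicate 4 was closest to the KO library of its own number in E8.5 embryos and in yolk sacs. In E9.5 embryos replicate 4 alone was. Replicates 1 and 2 against 3 and 4 as a term gave 1652 genes at E8.5, with 1 myeloid gene, and 782 in yolk sac. In E9.5 embryos TPM gave 3245 genes, voom 2457, and the fit without the 3 libraries low in brachyury 32, with 0 myeloid genes; a filter of 0.3 FPKM gave 2 myeloid genes. Replicates 1 and 2 alone gave 77, 11 and 0 genes in the 3 sets and 1, 0 and 0 myeloid genes; replicates 3 and 4 alone gave 41, 25 and 6 genes and 0 myeloid genes in E9.5 embryos and in yolk sac. TPM moved the median of all genes by -0.11 at E8.5. Over 21 alternatives the yolk sac difference of Csf2rb ran from -2.88 to -2.004 and that of Csf2rb2 from -2.47 to -1.12. That of Fcgr3 ran from -2.09 to -1.55. The 3 genes were called in 19, 19 and 16 of them, and without a filter Fcgr3 was at -1.86 and not called. No support is drawn from these yolk sac calls, since the list was chosen on that contrast. Beyond the smaller samples and the number of genes tested, the causes were not tested. Ptprc, Adgre1, Cx3cr1 and Tyrobp rest on at most 96 fragments per library, which limits the precision of their values.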

Other observations

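A further 2 genes of lists for other cell types were called and are given here. Apoa4, an apolipoprotein of visceral endoderm, fell in KO yolk sac from a mean scaled FPKM of 271 to 102 (log2 difference -1.42, SE 0.14, limma adjusted p = 0.00252) and was called in all 8 fits without 1 library. It was 1 of 9 endoderm genes tested, and the other 8 were not called. Among those 8, Amn was higher in KO yolk sac without overlap, at 225 to 253 in WT and 260 to 337 in KO. The median difference of the 9 was -0.17. Emcn, an endothelial sialomucin, fell in E9.5 KO embryos from 2.87 to 1.52 (difference -0.73, SE 0.19, limma adjusted p = 0.0351), 1 of 8 endothelial genes, and was called in 2 of 8 fits without 1 library. Cldn5, on the same list, was higher in E9.5 KO embryos without overlap, at 12.6 to 15.5 in WT and 15.7 to 24.2 in KO, and was not called. The median difference of the 8 was 0.12.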
